A study of Mus musculus with 8 samples.

Results

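The β-catenin destruction complex was followed here through the transcripts of 10 genes: the kinases Gsk3a, Gsk3b and Csnk1a1, the scaffolds Apc, Apc2 and Axin1, the F-box proteins Btrc and Fbxw11, and the tankyrases Tnks and Tnks2. They were taken by gene name as core parts and regulators of the complex, with earlier results of these data known, and all 10 were found among the 48440 genes of the count table. The RNA came from 129/Ola mouse embryonic stem cells, labelled as blastocyst stage, of which one line was parental (CTNNB1+/+) and the other a β-catenin knock-out (CTNNB1-/-). For 72 hours each line was given the GSK3 inhibitor CHIR99021 at 3 μM or DMSO at 0.3 μl/ml, in serum on gelatin with no feeders, which makes 4 groups of 2 libraries. Whether the CHIR99021 cells also received DMSO is not said in the labels, so the inhibitor and any difference in vehicle cannot be told apart. The design has 1 knock-out line and 1 parental line, so the effect of the genotype and any other difference between the lines cannot be told apart. The labels leave unsaid whether the 2 libraries of a group came from separate cultures. P-values thus set group differences against a spread between replicates, estimated over the 4 groups, which can be technical.

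The destruction complex keeps β-catenin low when Wnt ligands are absent. Axin and APC hold β-catenin beside casein kinase 1α, which primes it, and GSK3, which phosphorylates it further. The phosphorylated protein is recognised by the F-box proteins β-TrCP1 (Btrc) and β-TrCP2 (Fbxw11), which bring a ubiquitin ligase and so mark it for the proteasome. Tankyrases act against the complex by modifying Axin with poly(ADP-ribose), which leads to its turnover. CHIR99021 blocks the activity of both GSK3 enzymes and is widely used in stem cell culture to stabilise β-catenin. All of these steps act on protein, whereas the values here are transcript levels.

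Total estimated counts ran from 23650572 to 27680649 per library. The knocked-out gene followed its label: Ctnnb1 was at 813.4 to 905.6 CPM (counts scaled to a common library total) in the 4 parental libraries and at 7.98 to 10.7 CPM in the 4 knock-out libraries. All 8 embryonic stem cell markers examined were detected, with a summed level of 4874 to 5504 CPM. The summed level of 6 fibroblast markers was 5.11 to 10.5 CPM, and 2 of them were at 0 in every library. Thy1 made up most of this, at 3.78 to 6.44 CPM in parental and 6.60 to 8.06 in knock-out libraries. Trophoblast markers (5 genes), mostly Tfap2c, summed to 35.37 to 40.11 CPM with CHIR99021 and 45.29 to 47.55 with DMSO. Among them Cdx2 was at 1.34 and 1.80 CPM in parental libraries with CHIR99021 and at 0.0382 to 0.435 in the other 6. Primitive streak and mesoderm markers (5 genes) summed to 42.7 and 44.5 CPM in the parental libraries with CHIR99021 and to 2.86 to 3.99 CPM in the other 6. Eomes (30.4 and 30.5 CPM) and T (10.4 and 12.3 CPM) made up most of this, while Mixl1, Tbx6 and Mesp1 were at 0 to 1.25 CPM in all 8 libraries. In the same parental libraries the primitive endoderm markers (5 genes) summed to 11.22 and 12.96 CPM against 21.2 to 29.4 in the other 6, and the neural markers (4 genes) to 14.5 and 15.4 against 21.2 to 25.0. Of the primitive endoderm markers, Sox7 was at 4.14 and 5.35 CPM in these libraries and at 8.73 to 14.3 in the other 6. Gata4 went by line, at 4.21 to 5.81 CPM in parental and 10.2 to 11.5 in knock-out libraries. Dab2 did likewise, at 1.67 to 2.12 and 4.75 to 5.33 CPM. Gata6 and Sox17 were at 0.0429 to 1.31 CPM in all 8 libraries. Of the neural markers, Neurog2 was at 0 in all 8 libraries. Sox1 was at 9.08 and 8.82 CPM in parental libraries with CHIR99021 and 10.16 to 12.95 in the other 6. Map2 was at 5.98 and 5.06 against 9.27 to 10.26 CPM. Pax6 was lower with CHIR99021 in both lines, at 0.307 and 0.627 against 1.59 and 1.91 CPM in parental libraries. In the knock-out it was at 0.817 and 1.12 against 1.81 and 2.67 CPM. The part of these shifts in the member values below was not tested. In bulk RNA, fewer cells of a type and less RNA per cell cannot be told apart.

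The transcripts of the GSK3 kinases, the enzymes that CHIR99021 inhibits, showed no called change in any comparison. Gsk3a (ENSMUSG00000057177, chromosome 7, 25228258 to 25237851, minus strand, GRCm38) was at 79.7 and 80.4 CPM in parental cells with DMSO, 82.1 and 80.6 with CHIR99021, 87.6 and 78.7 in the knock-out with DMSO, and 84.0 and 81.5 with CHIR99021. The highest and the lowest library were thus replicates of the same group. Its log2 fold change with CHIR99021 was 0.02 ± 0.05 (SE) in parental cells, with a 95% interval of -0.09 to 0.14 (adjusted p = 0.807), and -0.01 ± 0.05 in the knock-out (interval -0.12 to 0.11, adjusted p = 0.958). Gsk3b (ENSMUSG00000022812, chromosome 16, 38089001 to 38246084, plus strand) was at 53.8 and 56.1 CPM in parental cells with DMSO, 51.2 and 54.8 with CHIR99021, 50.6 and 52.4 in the knock-out with DMSO, and 54.8 and 53.8 with CHIR99021. The knock-out libraries with DMSO lay below those of both other groups they are compared with, while the parental groups overlapped. With CHIR99021 its log2 fold change was -0.05 ± 0.05 in parental cells (interval -0.17 to 0.06, adjusted p = 0.534) and 0.08 ± 0.05 in the knock-out (interval -0.04 to 0.19, adjusted p = 0.429). Between the lines the log2 differences were 0.06 in DMSO and 0.02 in CHIR99021 for Gsk3a, and -0.09 and 0.04 for Gsk3b (adjusted p = 0.614, 0.784, 0.340 and 0.678). Gsk3a made up 58.9% to 63.4% of the counts of the pair in the 8 libraries, and the pair summed to 131.1 to 138.7 CPM.

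The proximal promoters of 4 genes are shown as a description, and any part of these sequences in the levels was not tested. They are those of both kinase genes that the inhibitor addresses, of Apc2 as the member with the widest range of levels, and of Axin2. Axin2, the other Axin scaffold, had the largest response to CHIR99021 in parental cells among the genes listed around the complex. Sites outside the 250 bases were not searched. Each is the 250 bases before the RefSeq start on GRCm38.p6, printed 5′ to 3′ on the gene's strand. Capitals mark the core letters CTTTGA or CTTTGT, or these on the other strand, which is the core of the motif bound by TCF/LEF factors.
Gsk3a (chr7:25237852-25238101, minus strand): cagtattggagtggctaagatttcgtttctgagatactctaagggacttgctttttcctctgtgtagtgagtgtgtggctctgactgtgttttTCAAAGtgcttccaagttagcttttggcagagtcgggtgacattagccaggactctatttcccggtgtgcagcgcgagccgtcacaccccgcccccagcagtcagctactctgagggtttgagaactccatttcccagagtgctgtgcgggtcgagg
Gsk3b (chr16:38088751-38089000, plus strand): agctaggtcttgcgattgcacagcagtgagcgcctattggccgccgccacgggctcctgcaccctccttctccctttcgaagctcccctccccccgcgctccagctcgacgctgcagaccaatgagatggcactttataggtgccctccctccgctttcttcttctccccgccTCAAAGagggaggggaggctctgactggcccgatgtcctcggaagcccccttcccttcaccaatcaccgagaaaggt
Apc2 (chr10:80295706-80295955, plus strand): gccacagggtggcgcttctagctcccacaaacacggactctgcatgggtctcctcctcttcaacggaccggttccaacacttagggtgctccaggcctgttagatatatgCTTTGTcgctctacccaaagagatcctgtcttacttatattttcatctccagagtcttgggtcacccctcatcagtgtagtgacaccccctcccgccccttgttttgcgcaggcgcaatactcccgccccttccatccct
Axin2 (chr11:108920099-108920348, plus strand): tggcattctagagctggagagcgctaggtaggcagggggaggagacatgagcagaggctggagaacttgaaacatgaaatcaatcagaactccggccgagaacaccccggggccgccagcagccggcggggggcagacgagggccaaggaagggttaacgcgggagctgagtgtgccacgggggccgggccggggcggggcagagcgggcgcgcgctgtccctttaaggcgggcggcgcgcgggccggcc
The windows of Gsk3a, Gsk3b and Apc2 hold 1 core each, whose first base lies 157, 77 and 140 bases before the start. The window of Axin2 holds 0, as do those of Fbxw11 and Tnks2. Of 32851 such windows in the RefSeq table, 27.6% hold at least 1 core. RefSeq gives 4 windows for Apc2: the one shown has 1 core, and the others, which overlap annotated exons and are not printed, have 0, 2 and 0.

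**Figure D1:**
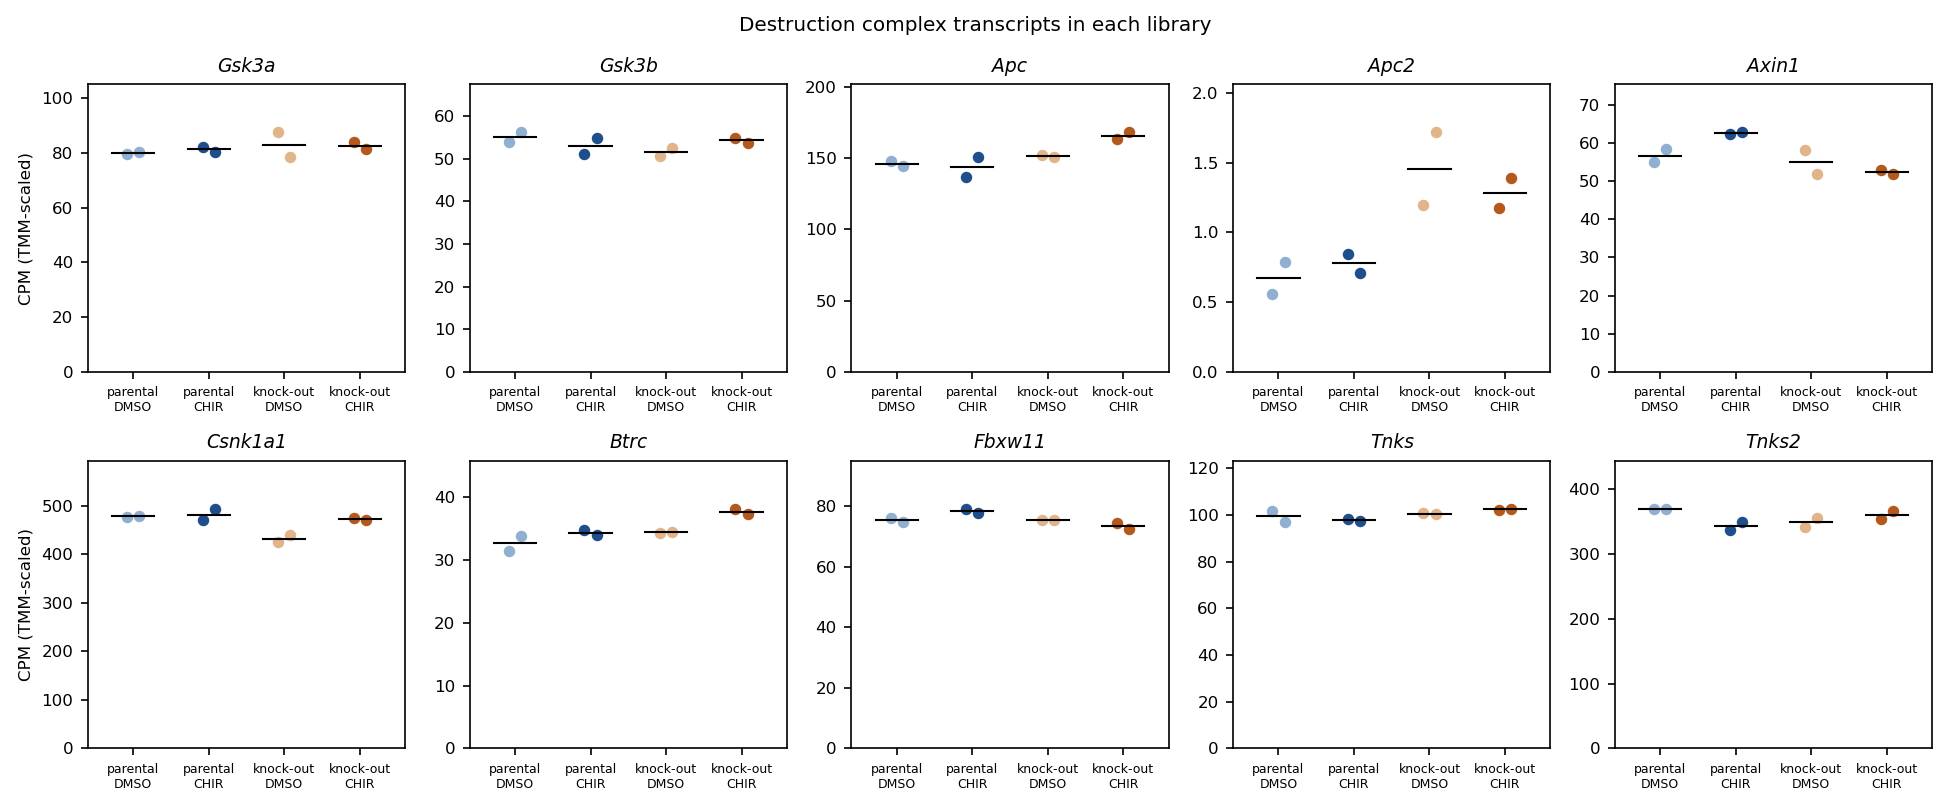
TMM-scaled CPM (vertical axes from 0, one panel per gene) of the 10 members in the 8 libraries. Points are libraries and lines are the means of the 2 libraries of a group (CHIR: CHIR99021). Apc2 lies under 2 CPM in every library, and for the other 9 genes the 4 group means differ by at most 0.25 on the log2 scale.

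Among the scaffolds, Apc and Axin1 differed between the lines under CHIR99021, in opposite directions. Apc, the tumour suppressor that binds β-catenin and Axin (ENSMUSG00000005871, chromosome 18, 34220924 to 34322552, plus strand), was at 147.6 and 144.1 CPM in parental cells with DMSO, 137.0 and 150.7 with CHIR99021, 152.3 and 150.9 in the knock-out with DMSO, and 163.1 and 168.0 with CHIR99021. Both knock-out libraries with CHIR99021 were above the other 6. With CHIR99021 the knock-out stood 0.20 ± 0.05 above parental cells on the log2 scale (1.15-fold, interval 0.10 to 0.31, adjusted p = 0.0105). Without parental CHIR99021 replicate 1 the value was 0.14 (adjusted p = 0.109), and without knock-out CHIR99021 replicate 2 it was 0.19 (adjusted p = 0.0796). In DMSO the lines differed by 0.06 ± 0.05 (adjusted p = 0.567). CHIR99021 itself gave -0.02 ± 0.05 in parental cells (adjusted p = 0.824) and 0.13 ± 0.05 in the knock-out (adjusted p = 0.138), and the difference between these effects was 0.15 ± 0.07 (adjusted p = 0.251).

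Axin1, the scaffold that brings the parts together (ENSMUSG00000024182, chromosome 17, 26138688 to 26195811, plus strand), was at 55.0 and 58.3 CPM in parental cells with DMSO, 62.4 and 62.8 with CHIR99021, 58.0 and 51.9 in the knock-out with DMSO, and 53.0 and 51.9 with CHIR99021. Both parental libraries with CHIR99021 were above the other 6, and the knock-out groups overlapped. With CHIR99021 the knock-out stood lower by a log2 difference of -0.25 ± 0.06 (0.838-fold, interval -0.38 to -0.12, adjusted p = 0.00957). Without knock-out CHIR99021 replicate 2 the value was -0.24 (adjusted p = 0.0761). CHIR99021 gave 0.14 ± 0.06 in parental cells (interval 0.01 to 0.27, adjusted p = 0.121) and -0.07 ± 0.06 in the knock-out (adjusted p = 0.546), and the interaction was -0.21 ± 0.08 (interval -0.40 to -0.03, adjusted p = 0.182). In DMSO the lines differed by -0.04 ± 0.06 (adjusted p = 0.747).

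Apc2, a relative of Apc known mainly from the nervous system (ENSMUSG00000020135, chromosome 10, 80295977 to 80318263, plus strand), was barely detected. It had 13 and 19 counts in parental cells with DMSO, 22 and 17 with CHIR99021, 33 and 45 in the knock-out with DMSO, and 33 and 36 with CHIR99021, that is 0.558 to 0.843 CPM in the parental libraries and 1.17 to 1.72 CPM in the knock-out. All 4 knock-out libraries were above all 4 parental ones. In DMSO the difference between the lines was 1.10 ± 0.32 (interval 0.39 to 1.82), which did not pass the threshold (adjusted p = 0.0721); it did so only when no filter on low counts was applied (1.09, adjusted p = 0.0257), and over all alternatives the adjusted p ran from 0.0257 to 0.341. With CHIR99021 it was 0.71 ± 0.32 (interval 0.01 to 1.42, adjusted p = 0.136). From the summed counts, 78 against 32 in DMSO gave a ratio of 2.15 (exact 95% interval 1.41 to 3.35) and 69 against 39 in CHIR99021 a ratio of 1.64 (1.09 to 2.49), intervals that cover counting error only. Apc still made up 98.9% to 99.6% of the counts of the Apc pair. The sum of the pair differed between the lines in CHIR99021 by 0.21 ± 0.05 (adjusted p = 0.00928), lost without parental CHIR99021 replicate 1 (adjusted p = 0.0983) or knock-out CHIR99021 replicate 2 (adjusted p = 0.0807).

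Over the 8 libraries, the genes whose log2 CPM followed Apc2 most closely among 10786 genes with at least 5 CPM were Eps8, Ttc23, Trim63, Creb3l1 and Pigb, with Pearson r of 0.976, 0.972, 0.959, 0.952 and 0.951. These are descriptions over libraries that share the same 2 lines, taken from the top of many genes.

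Casein kinase 1α gave the call between the lines in DMSO, 1 of 10 members, where 6.75% of all genes tested passed. Csnk1a1, which places the priming phosphate on β-catenin (ENSMUSG00000024576, chromosome 18, 61555274 to 61590061, plus strand), was at 477.0 and 479.3 CPM in parental cells with DMSO, 469.2 and 493.1 with CHIR99021, 424.2 and 439.2 in the knock-out with DMSO, and 474.3 and 470.0 with CHIR99021. The knock-out libraries with DMSO were the lowest pair and lay apart from the other 6. In DMSO the knock-out stood lower by a log2 difference of -0.15 ± 0.04 (0.903-fold, interval -0.23 to -0.06, adjusted p = 0.0417). The call was lost in 7 of 14 alternatives: with the compared groups alone (adjusted p = 0.074), and without parental DMSO replicate 1 (0.196) or 2 (0.192), knock-out DMSO replicate 1 (0.171) or 2 (0.0512), or knock-out CHIR99021 replicate 1 (0.0742) or 2 (0.0673). In CHIR99021 the lines differed by -0.03 (adjusted p = 0.654). CHIR99021 gave 0.01 ± 0.04 in parental cells (adjusted p = 0.906) and 0.13 ± 0.04 in the knock-out (interval 0.05 to 0.21, adjusted p = 0.0662). The latter passed with DESeq2 (adjusted p = 0.0247), with no filter (0.0434) and with a filter of 5 CPM in 2 libraries (0.0286), within a range of 0.0247 to 0.292 over its alternatives. The interaction was 0.12 ± 0.05 (adjusted p = 0.231).

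The F-box pair gave no call. Btrc (ENSMUSG00000025217, chromosome 19, 45363734 to 45530013, plus strand) was at 31.5 and 33.9 CPM in parental cells with DMSO, 34.8 and 34.0 with CHIR99021, 34.4 and 34.5 in the knock-out with DMSO, and 38.2 and 37.3 with CHIR99021. The knock-out libraries with CHIR99021 were above the other 6, with a log2 fold change for CHIR99021 of 0.13 ± 0.06 in the knock-out (interval 0.01 to 0.26, adjusted p = 0.183) against 0.07 ± 0.06 in parental cells (adjusted p = 0.437). Under CHIR99021 the lines differed by 0.14 ± 0.06 (adjusted p = 0.111). Fbxw11 (ENSMUSG00000020271, chromosome 11, 32642724 to 32746816, plus strand) was at 76.1 and 74.7 CPM in parental cells with DMSO, 79.0 and 77.7 with CHIR99021, 75.3 in both knock-out libraries with DMSO, and 74.3 and 72.3 with CHIR99021. Parental libraries with CHIR99021 were the highest pair and knock-out libraries with CHIR99021 the lowest, a difference of -0.10 ± 0.04 (adjusted p = 0.133). The share of Btrc in the counts of the pair was 33.9% and 34.0% in the knock-out with CHIR99021 and 29.3% to 31.4% in the other 6 libraries, while the sum stayed within 107.6 to 113.8 CPM.

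The tankyrases, the enzymes that lead Axin to turnover, were likewise not called. Tnks (ENSMUSG00000031529, chromosome 8, 34826460 to 34965690, minus strand) was at 101.8 and 97.1 CPM in parental cells with DMSO, 98.3 and 97.4 with CHIR99021, 100.9 and 100.2 in the knock-out with DMSO, and 102.1 and 102.6 with CHIR99021. The spread within the parental DMSO group covered most of that range, and its log2 fold changes with CHIR99021 were -0.02 ± 0.04 in parental cells (adjusted p = 0.745) and 0.03 ± 0.04 in the knock-out (adjusted p = 0.770). Tnks2 (ENSMUSG00000024811, chromosome 19, 36834232 to 36893477, plus strand) was at 368.8 and 369.5 CPM in parental cells with DMSO, 336.7 and 349.1 with CHIR99021, 341.9 and 356.1 in the knock-out with DMSO, and 354.5 and 365.5 with CHIR99021. The parental libraries with DMSO were the highest pair. CHIR99021 gave Tnks2 a log2 fold change of -0.11 ± 0.04 in parental cells (interval -0.19 to -0.02, adjusted p = 0.0786) and 0.04 ± 0.04 in the knock-out (adjusted p = 0.539), with an interaction of 0.15 ± 0.05 (interval 0.03 to 0.27, adjusted p = 0.141).

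**Figure D2:**
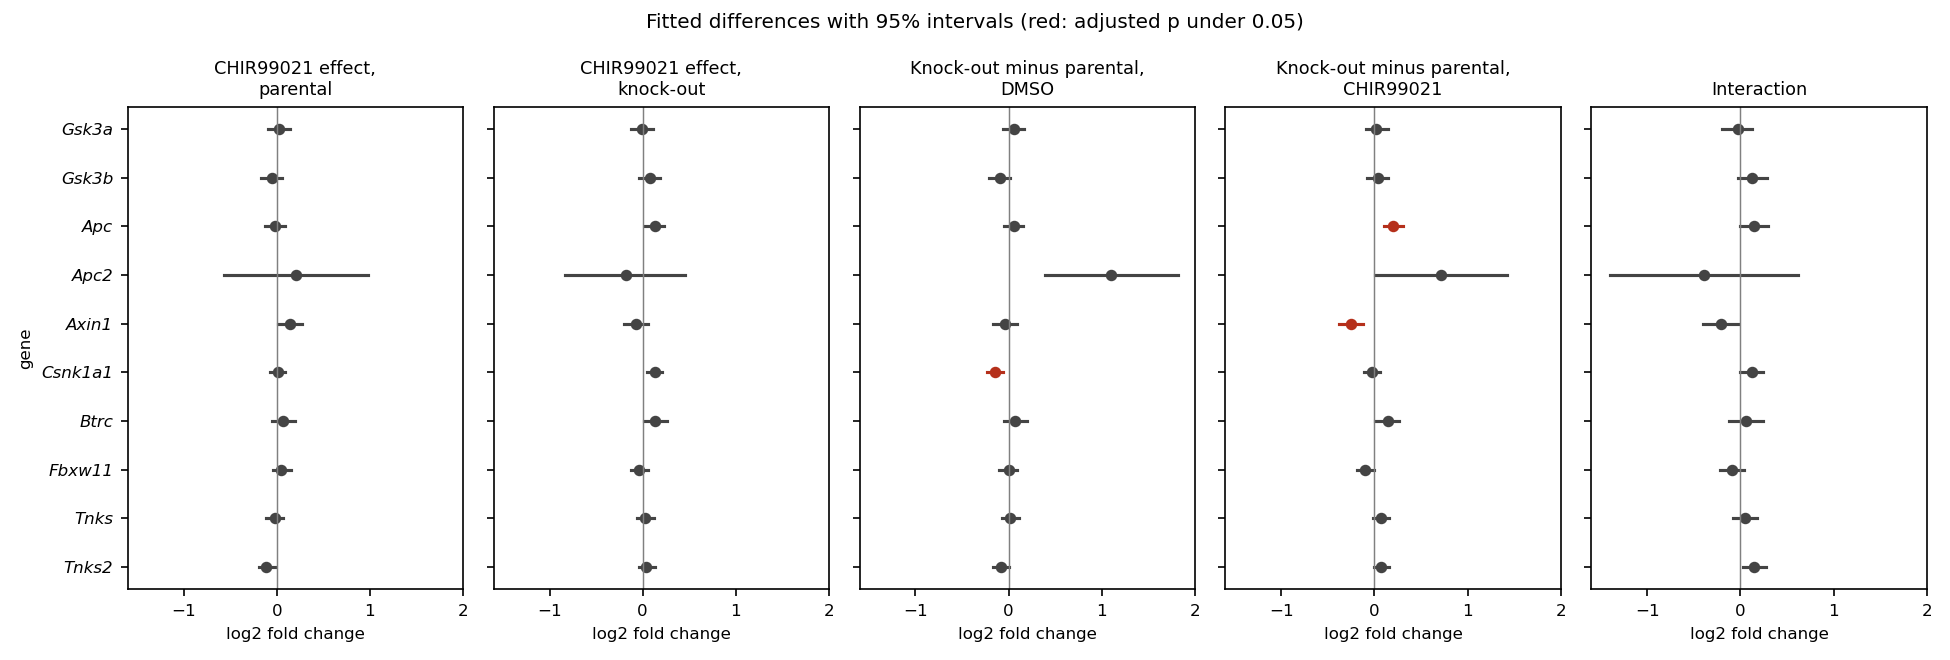
Log2 fold change (horizontal axes) of each member in the 5 comparisons, with 95% intervals of the edgeR fit, and in red those with an adjusted p under 0.05. Csnk1a1 in DMSO and Apc and Axin1 in CHIR99021 are the 3 red points, and the intervals of Apc2 are the widest.

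Counted over the complex, the response to GSK3 inhibition in parental cells held 0 of 10 members past the threshold by edgeR, where 19.4% of the 17739 genes tested passed. DESeq2 also gave 0, against 12.4% of all genes, and 2 members (Axin1 and Tnks2) had an unadjusted p under 0.05, against 31.7%. In the knock-out 0 of 10 passed, against 7.06% of all genes; DESeq2 gave 1 (Csnk1a1), against 4.77%, and 3 (Apc, Csnk1a1 and Btrc) had an unadjusted p under 0.05, against 23.2%. Between the lines, 1 of 10 passed in DMSO against a background of 6.75%, and 2 of 10 in CHIR99021 against 23.7%. DESeq2 gave the same numbers, 1 against 4.48% and 2 against 15.3%, and at an unadjusted p under 0.05 they were 2 against 21.3% and 5 against 35.5%. For the interaction, which asks whether the response differs between the lines, 0 of 10 passed by edgeR, against 6.13%, and by DESeq2, against 4.19%, with 3 (Axin1, Csnk1a1 and Tnks2) at an unadjusted p under 0.05, against 20.7%. Comparisons that share a group of libraries are not independent of each other.

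The precision of these values is given for 9 of the 10, with Apc2 left aside for its low counts, a choice made after its values were seen. Each 95% interval covers 1 gene alone and rests on the spread of replicates, which can be technical. The SEs of the 9 members were 0.04 to 0.06 for the 4 comparisons of 2 groups. For CHIR99021 in parental cells, the outermost bounds of the 9 intervals were 0.876-fold and 1.21-fold, and for knock-out cells 0.871-fold and 1.19-fold. Between the lines they were 0.852-fold and 1.15-fold in DMSO, and 0.766-fold and 1.24-fold in CHIR99021. The median absolute log2 fold change of the 10 members with CHIR99021 was 0.05 for parental and 0.07 for knock-out cells, beside 0.18 and 0.14 over all genes tested. All members but Apc2 were above 30 CPM in every library. Over the 6014 genes with a mean of 30 CPM or more, a bound set after seeing the data, the same medians were 0.10 and 0.08 and the called shares 27.6% and 13.4%. Between the lines, the members' median was 0.06 in DMSO and 0.08 in CHIR99021, beside 0.07 and 0.11 for those genes, of which 12.2% and 35.0% were called. For the interaction it was 0.13, beside 0.10.

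Per kilobase of exon, which allows levels to be compared between genes, Csnk1a1 and Tnks2 were the most abundant members and Apc2 the least. The mean over 8 libraries was 44.4 CPM per kb for Csnk1a1 (range 40.4 to 47.0), 34.1 for Tnks2, 28.2 for Gsk3a, 17.5 for Fbxw11, 14.8 for Axin1, 9.41 for Apc, 6.72 for Tnks, 5.43 for Gsk3b, 2.06 for Btrc and 0.0928 for Apc2 (range 0.0495 to 0.152). The ranges of neighbours in this order did not overlap. The choice of length, however, moved the order, apart from Apc2 in last place and Csnk1a1 and Tnks2 as the leading pair. With the longest coding transcript in place of all exons, an alternative added after seeing the data, Btrc was at 11.5 CPM per kb and ranked seventh, above Tnks at 10.9 and Gsk3b at 6.44. With the median coding transcript, also added later, Tnks2 led at 430 CPM per kb over Csnk1a1 at 226, and Apc2 was last at 1.85.

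**Figure D3:**
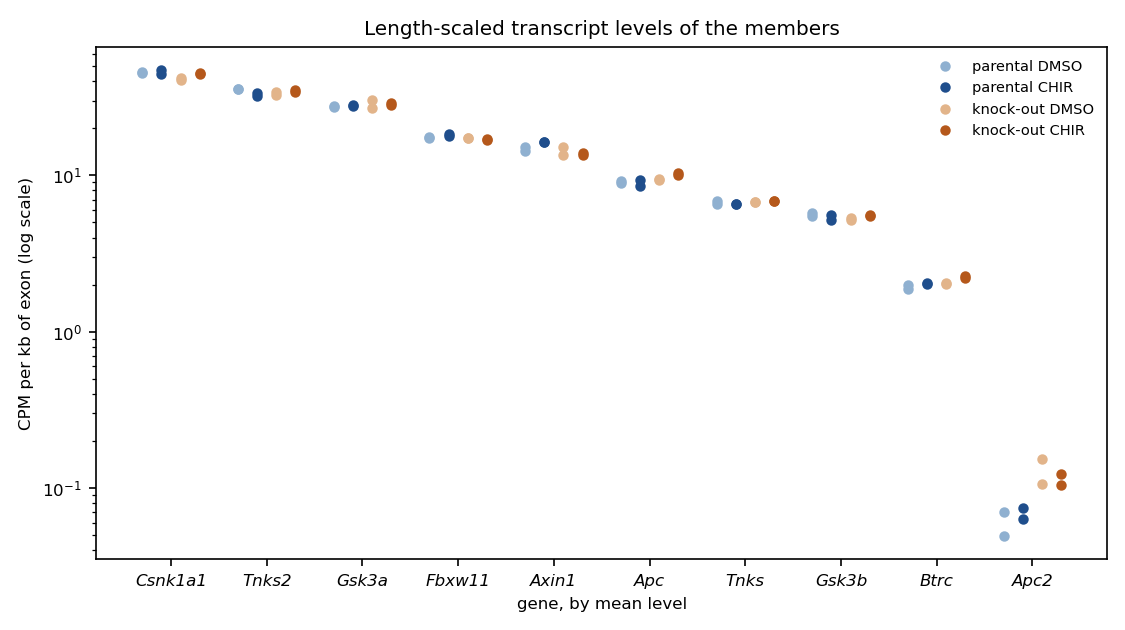
Level per kb of exon union (vertical axis, CPM per kb, log scale) of the 10 members, ordered by their mean. Points are the 8 libraries, coloured by group, and the library ranges of neighbouring genes do not overlap.

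Reads could in part be shared between genes. No stretch of 31 bases was common to a member and its paralog in the GENCODE M21 transcripts, which need not be the set the authors counted on. For Gsk3a, 26.1% of such stretches also occur in 9130221H12Rik, an overlapping gene on the opposite strand with a mean of 7.09 CPM, so its level is uncertain by that overlap. For the other 9 members the share found in any other gene was 0% to 3.99%.

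Among the further genes listed, the largest response to CHIR99021 in parental cells was that of Axin2, the Axin1 relative that Wnt signalling is known to induce as a feedback brake. It went from 3.86 and 4.69 CPM in parental cells with DMSO to 42.5 and 41.5 with CHIR99021, and from 5.18 and 4.85 in the knock-out to 2.88 and 2.82. The parental libraries with CHIR99021 were far above all others and the knock-out libraries with CHIR99021 below all others. Its log2 fold changes were 3.29 ± 0.09 in parental cells (adjusted p = 4.27e-09) and -0.82 ± 0.12 in the knock-out (adjusted p = 0.00312), an interaction of -4.11 ± 0.15 (adjusted p = 2.68e-07). Between the lines it differed by 0.23 ± 0.11 in DMSO (adjusted p = 0.318) and by -3.88 ± 0.10 in CHIR99021 (adjusted p = 8.56e-10). Beside Axin1, and per kb of exon, Axin2 made up 32.1% and 31.5% of the Axin transcripts in parental cells with CHIR99021, 4.66% and 5.29% with DMSO, 5.85% and 6.10% in the knock-out with DMSO and 3.64% in both knock-out libraries with CHIR99021. The sum of the pair was 24.0 and 23.9 CPM per kb in the first of these groups and 14.1 to 16.1 in the other 6 libraries. This sum was formed after the values were seen. The shares and the sum depend on the length used, here 5.51 kb for Axin2 and 3.83 kb for Axin1. By exon length, the means over all 8 libraries were 2.46 CPM per kb for Axin2 and 14.8 for Axin1. By the median coding transcript (0.83 and 2.86 kb) they were 16.4 and 19.8. Levels by the latter length were not formed for each group. Which Axin is the more abundant in parental cells with CHIR99021 is thus not settled.

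Frat1 and Frat2 encode proteins that bind GSK3 and compete with Axin for it, and both fell with CHIR99021 in both lines. Frat1 was at 4.12 and 4.11 CPM in parental cells with DMSO, 0.613 and 1.21 with CHIR99021, 3.23 and 3.09 in the knock-out with DMSO, and 1.21 and 1.27 with CHIR99021. All CHIR99021 libraries were below all DMSO libraries. Its log2 fold change was -2.18 ± 0.26 in parental cells (adjusted p = 0.000145), with summed counts of 45 against 195, a ratio of 0.219 (exact interval 0.154 to 0.304). In the knock-out it was -1.35 ± 0.25 (adjusted p = 0.0109), with 67 against 170 counts, a ratio of 0.392 (0.291 to 0.523). Frat2 showed the same order, at 6.65 and 7.01, 2.84 and 2.17, 5.87 and 5.65, and 3.30 and 3.28 CPM in these 4 groups. Its log2 fold change was -1.44 ± 0.15 in parental cells (adjusted p = 5.78e-05) and -0.81 ± 0.15 in the knock-out (adjusted p = 0.0101). The parental calls held without any 1 library. The knock-out calls were lost without knock-out DMSO replicate 1 (adjusted p = 0.0757 for Frat1 and 0.0748 for Frat2), knock-out CHIR99021 replicate 1 (0.0852 and 0.0727) or knock-out CHIR99021 replicate 2 (0.0788 and 0.0801). The interaction did not pass for either gene, at 0.83 ± 0.37 (adjusted p = 0.229) and 0.64 ± 0.21 (adjusted p = 0.114).

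**Figure D4:**
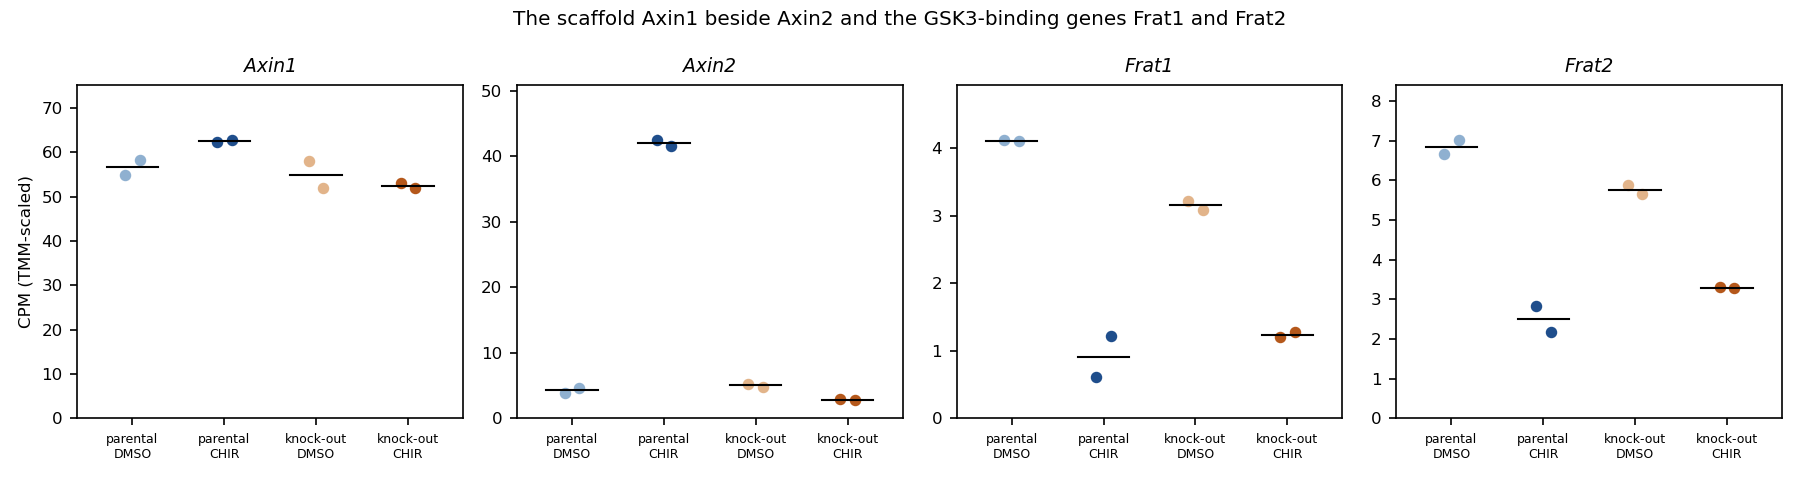
TMM-scaled CPM (vertical axes from 0) of Axin1, Axin2, Frat1 and Frat2 in the 8 libraries, with lines at the means of the 2 libraries of a group (CHIR: CHIR99021). Axin2 is above 40 CPM only in the parental libraries with CHIR99021, and Frat1 and Frat2 are lower with CHIR99021 than with DMSO in both lines.

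Of 43 further genes listed around the complex, 41 could be tested (Amer2 and Amer3 did not pass the filter on low counts). In parental cells CHIR99021 gave 5 called as higher and 5 as lower, which is 24.4% of those tested beside 19.4% of all genes, and in knock-out cells 1 as higher and 5 as lower, or 14.6% beside 7.06%. Over all genes at 30 CPM or more these shares were 27.6% and 13.4%. Between the lines 1 was higher and 2 lower in DMSO (7.32%, beside 6.75% of all genes), and 3 were higher and 12 lower in CHIR99021 (36.6%, beside 23.7%, or 35.0% at 30 CPM or more). The interaction gave 3, all negative (7.32%, beside 6.13%). Of 8 other casein kinases, Csnk1g1 was called with CHIR99021 in both lines, at 31.7 and 33.6 against 38.7 and 40.5 CPM in parental cells (log2 0.28 ± 0.06, adjusted p = 0.00786) and 33.1 and 35.2 against 41.3 and 39.8 CPM in the knock-out (0.25 ± 0.06, adjusted p = 0.0305). The first no longer passed without parental DMSO replicate 1 (0.0878) or parental CHIR99021 replicate 2 (0.0547). The second was lost with DESeq2 (0.087) and without knock-out DMSO replicate 1 (0.199), knock-out CHIR99021 replicate 1 (0.181) or knock-out CHIR99021 replicate 2 (0.113). Of 6 genes of the ubiquitin ligase core that the F-box proteins join, 1 was called in any comparison. Cul1, its cullin, had -0.17 ± 0.04 with CHIR99021 in parental cells (adjusted p = 0.0205), where 19.4% of all genes were called. At 30 CPM or more that share was 27.6%. The Cul1 call was lost without parental DMSO replicate 1 (log2 -0.14) or parental CHIR99021 replicate 1 (log2 -0.12).

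Csnk2a1, the catalytic α subunit of casein kinase 2, was lower in the knock-out in both conditions. It was at 401.7 and 415.6 CPM against 310.4 and 328.1 CPM in DMSO (log2 -0.36 ± 0.04, adjusted p = 0.000934), and at 364.5 and 380.8 against 314.0 and 325.5 CPM in CHIR99021 (-0.22 ± 0.04, adjusted p = 0.00342). Every parental library was above every knock-out library, and both calls held in all 14 alternatives. In CHIR99021 4 of the 8 other casein kinases were lower and 1 higher in the knock-out, where 23.7% of all genes were called. Over genes at 30 CPM or more this share was 35.0%. Among the lower was Csnk2b, the regulatory subunit of casein kinase 2 (-0.28 ± 0.05, adjusted p = 0.00239). The higher one, Csnk1e, stood at 0.20 ± 0.04 in CHIR99021 (adjusted p = 0.00692) and 0.17 ± 0.04 in DMSO (adjusted p = 0.0428). Its calls were lost in 2 and 10 of the 14 alternatives.

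Among 10 subunits of protein phosphatase 2A, which removes phosphates within the complex, 1 was higher and 1 lower with CHIR99021 in parental cells, where 19.4% of all genes were called. Ppp2r5d, a regulatory B56 subunit, was at 95.6 and 98.4 CPM with DMSO and 115.2 and 111.6 with CHIR99021 (log2 0.23 ± 0.04, adjusted p = 0.00372), and in the knock-out at 106.9 and 101.6 against 99.8 and 100.1 CPM (-0.06 ± 0.04, adjusted p = 0.437). Its interaction was -0.29 ± 0.06 (adjusted p = 0.0181), lost without parental DMSO replicate 1 (0.0838), parental CHIR99021 replicate 1 (0.084), knock-out DMSO replicate 1 (0.0662), or knock-out CHIR99021 replicate 1 (0.0682) or 2 (0.0828). Dvl1, a Dishevelled protein that carries the Wnt signal to the complex, was at 36.2 and 38.2 CPM with DMSO and 46.7 and 46.3 with CHIR99021 in parental cells (0.32 ± 0.06, adjusted p = 0.00397); in the knock-out its log2 fold change was 0.09 ± 0.06 (adjusted p = 0.446) and the interaction -0.24 ± 0.09 (adjusted p = 0.157).

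Jup encodes plakoglobin, the close relative of β-catenin that the same complex can handle. It was at 125.3 and 128.0 CPM in parental cells with DMSO, 127.2 and 121.9 with CHIR99021, 130.7 and 122.4 in the knock-out with DMSO, and 100.7 and 97.2 with CHIR99021. Only the knock-out libraries with CHIR99021 stood apart, below the other 6. Its log2 fold change with CHIR99021 was -0.02 in parental cells (adjusted p = 0.768) and -0.36 ± 0.05 in the knock-out (adjusted p = 0.00162). The interaction was -0.33 ± 0.07 (adjusted p = 0.0123), lost without parental DMSO replicate 1 (0.0536), parental CHIR99021 replicate 1 (0.0634) or knock-out CHIR99021 replicate 2 (0.0752). The lines did not pass in DMSO (0.00, adjusted p = 0.993) and differed by -0.33 ± 0.05 in CHIR99021 (adjusted p = 0.000418).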

How the data were processed

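Polyadenylated RNA was sequenced from 8 libraries in 4 groups (TruSeq Stranded mRNA kit, per the labels' protocols). The file the authors deposited holds expected counts per Ensembl gene, made with kallisto (version not given) on GRCm38.p4, per the submitters' processing notes; the transcript set and the strand setting are not given in the sources used here. In each library 36.7% to 38.2% of entries were not whole, and values were rounded. Genes were kept with edgeR 4.0.16 filterByExpr (10 counts in a library, 15 in total), which left 17739 genes with 99.905% to 99.918% of the counts. The quasi-likelihood model with TMM factors (0.9857 to 1.0181) and 1 mean for each group used all 8 libraries (4 residual degrees of freedom). The 5 comparisons used its 2-sided F test, Benjamini-Hochberg adjusted over all genes, called under 0.05. SE is the absolute log2 fold change over the root of F.

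Between replicates the chi-square per degree of freedom, which counting alone holds near unity, was 3.26 to 4.86, and the common biological coefficient of variation was 0.0532. Exact intervals of count ratios use the binomial split. Positions and transcript lengths came from GENCODE M21, matched by gene identifier, and promoters from RefSeq, where Apc2, Fbxw11, Gsk3a, Gsk3b and Tnks2 matched by symbol. Members on chromosome 18 (Apc and Csnk1a1) were left out of the promoter search. Named genes were all members, Ctnnb1, Axin2, Jup, and from each further list at most 3 called genes per comparison with the smallest adjusted p. Members and lists were chosen with earlier results of these data known. Alternatives were DESeq2 1.42.0, relative log expression factors, no filter beyond 1 read, 5 CPM in 2 libraries, a replicate block, a fit of only the groups compared, paralog sums and leaving out each library. The procedure was tested on simulated data.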

Additional observations from a re-analysis of the deposited data

Results flagged for a closer look

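The response to CHIR99021 differed between the lines for 3 genes around the complex, by the test of the interaction itself in the edgeR fit. That is 3 of 41 tested, or 7.32%, beside 6.13% of all genes. Axin2, the induced Axin, had an interaction of -4.11 on the log2 scale (adjusted p = 2.68e-07), with all alternatives on the same side of the threshold. Jup, which encodes plakoglobin, had -0.33 (adjusted p = 0.0123), and Ppp2r5d, a regulatory subunit of protein phosphatase 2A, had -0.29 (adjusted p = 0.0181). Both of the latter calls were lost when certain libraries were left out, as given above, with values of -0.38 to -0.28 for Jup and -0.32 to -0.25 for Ppp2r5d over all alternatives. No member of the complex was called in this test.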

How the results depend on the processing

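Among 682 values for the members over the alternatives, 668 stayed on their side of the threshold, 4 passed where the reported value had not, and 10 no longer passed. The sign, on values rounded to 2 decimals, was opposite in 15, all of them for values that had not passed and at most 0.10 in size on the log2 scale. It was opposite in 0 of the 42 values for the 3 called differences, each of 1 member in 1 comparison. The number of members past the threshold was 0 under every alternative for CHIR99021 in parental cells and for the interaction. For CHIR99021 in the knock-out it was 1 with DESeq2, without a count filter and with the 5 CPM filter, and 0 with every library left out in turn. Between the lines in DMSO it was 2 with no filter, 0 with the compared groups alone and 0 to 1 with libraries left out. Between the lines in CHIR99021 it was 0 to 2 with libraries left out, and 0 when knock-out CHIR99021 replicate 2 was absent. Over all genes, the counts were 2205 with DESeq2 against 3441 for CHIR99021 in parental cells, 795 against 1198 between the lines in DMSO and 2709 against 4200 in CHIR99021. With no filter they were 2167 against 1252 for CHIR99021 in the knock-out, 2064 between the lines in DMSO, and 1990 against 1087 for the interaction. With 1 library left out they ran from 2057 to 3507 and from 307 to 1237 for the CHIR99021 response of parental and of knock-out cells, from 357 to 1047 and from 2509 to 4353 between the lines in DMSO and in CHIR99021, and from 605 to 1143 for the interaction. A lone library is then taken to vary as the remaining groups do, and fewer libraries leave fewer degrees of freedom. The cause of the other changes was not tested. Deviations of same-numbered libraries correlated at -0.06 to 0.10, so no strong shared deviation was seen. This cannot tell whether same-numbered libraries were prepared together. With a replicate block the genes called were 3434, 1313, 1225, 4296 and 1135 in the 5 comparisons and the members called 0, 0, 1, 2 and 0. For Apc2, at 13 to 45 counts per library, depth limits what can be seen.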
